A study of Mus musculus with 11 samples.

Results

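Inflammatory chemokines are small secreted proteins that draw leukocytes to sites of infection and immune activation. Rows of the processed table were chosen by gene symbol from a list of Ccl3, Ccl4, Ccl5, Cxcl9, Cxcl10, Cxcl16 and Xcl1. Of these 7 genes, 5 had a row among the 10885 genes of the table, namely Ccl3 (ENSMUSG00000000982), Ccl4 (ENSMUSG00000018930), Ccl5 (ENSMUSG00000035042), Cxcl16 (ENSMUSG00000018920) and Xcl1 (ENSMUSG00000026573). Cxcl9 and Cxcl10 were not analysed here. RNA-seq was read in 11 libraries of whole-tissue cells from spleen and lymph node (LN) of 6 mice, in a study of how the genetic context of the BCL2 oncogene in B cells affects pre-malignant development. Mice 1 and 2 were wild type (Wt). Mice 3 and 4 were transgenic (Tg, 3'RR-BCL2), a name for BCL2 driven by the heavy chain locus's downstream enhancer region (3'RR). Mice 5 and 6 were knock-in (KI, Igk-BCL2), with BCL2 at the kappa light chain locus. All 6 mice had received sheep red blood cells intraperitoneally, in 3 immunisations over 3 months, and tissue was collected 1 month after the last. Both tissues were used from every mouse except mouse 3, for which only LN was used here, so spleen Tg was a single library. The labels gave no age, strain or collection day, so genotype and any difference in colony or handling cannot be told apart.

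Chemokines act through G protein-coupled receptors on the cells they attract. CCL3 and CCL5 bind CCR1. CCL3, CCL4 and CCL5 are made by activated macrophages, T cells and NK cells, and CCL5 transcripts are also kept in resting memory and cytotoxic T cells. CXCL9 and CXCL10 are induced by interferon-gamma and bind CXCR3. CXCL16 is made as a membrane protein, mainly by macrophages, dendritic cells and B cells, is cut free by the protease ADAM10, and binds CXCR6 on T and NKT cells. XCL1 is released by activated CD8 T cells and NK cells and binds XCR1 on cross-presenting dendritic cells.

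The values are the authors' normalised signal, that is read counts divided by 1 factor per library, so levels are compared between libraries and not between genes. Depth was 18994455 to 24110325 recovered reads in the 5 spleen libraries and 11128568 to 21067988 in the 6 LN libraries, and the member values rested on 26 to 1865 reads. No member was at 0 in any library. The table's Bcl2 row held 2338 to 2716 in the 4 Wt, 2065 to 3171 in the 3 Tg and 1246 to 1664 in the 4 KI libraries. The labels do not say whether the inserted BCL2 would be counted in that row, so it could not check the genotypes. Xist was at 14513 and 12314 in the 2 libraries of Wt mouse 1 and at no more than 8.05 in the other 9, and Ddx3y was at 0 in mouse 1 alone. By these transcripts mouse 1 was female and the other mice were male. All Tg and KI mice thus differed in sex from 1 of the 2 Wt mice. The 2 KI mice also differed from each other more than other pairs did, with an SD over genes of the log2 difference between replicates of 0.903 in spleen and 0.918 in LN, against 0.449 to 0.493 in the other pairs. Replicates were separate mice by the labels' subject numbers, at most 2 a group.

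**Figure D1:**
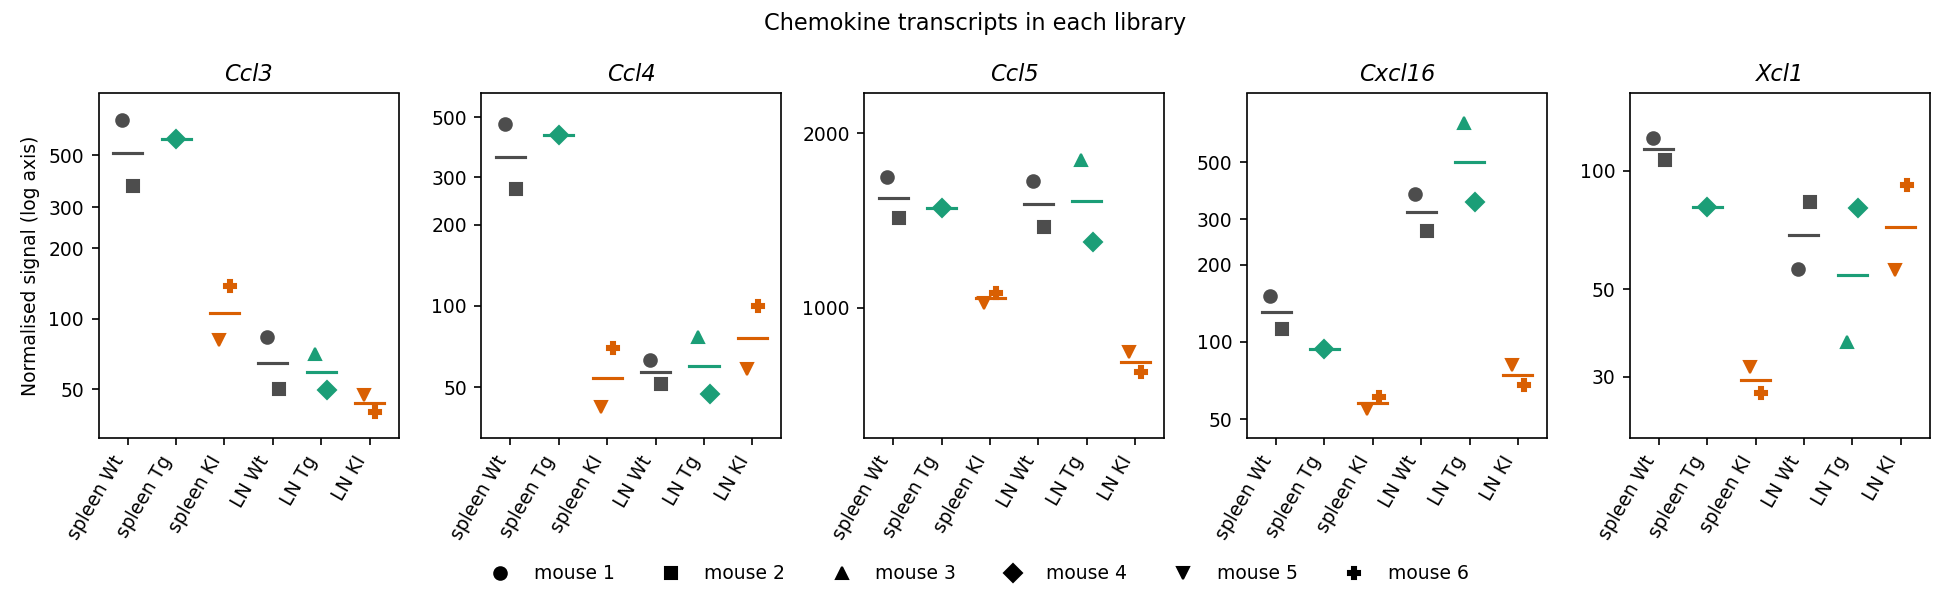
Normalised signal (log axis, own range per gene) of the 5 measured chemokine genes in each library, grouped by tissue and genotype, with 1 symbol per mouse and a line at each group's geometric mean. Both spleen KI libraries lie below both spleen Wt libraries for all 5 genes, and both LN KI libraries lie below the LN Wt and LN Tg libraries for Ccl3, Ccl5 and Cxcl16.

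Ccl3, which encodes macrophage inflammatory protein 1-alpha, was a spleen transcript in Wt and Tg mice. In spleen its signal was 705 (mouse 1) and 370.5 (mouse 2) in Wt, 583 in the Tg mouse, and 81.5 (mouse 5) and 138 (mouse 6) in KI. In LN it was 83.9 and 50.3 in Wt, 70.8 (mouse 3) and 49.8 (mouse 4) in Tg, and 47.2 and 40.2 in KI. The 3 Wt and Tg spleens thus stood above every other library, the KI spleens lay on either side of the highest LN value, and the 2 LN KI libraries were the lowest. Spleen KI was 4.79-fold lower than spleen Wt (log2 difference -2.26 ± 0.38 SE, limma adjusted p = 0.0044, 2 libraries against 2, no overlap). In a whole tissue, fewer cells that make a transcript and less of it per cell cannot be told apart. In LN the KI libraries again did not overlap Wt, but the difference did not pass the test (-0.57 ± 0.38, 95% interval -1.42 to 0.28, limma adjusted p = 0.31).

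Ccl4, which encodes macrophage inflammatory protein 1-beta, followed Ccl3 in spleen but not in LN. In spleen its signal was 471 and 271 in Wt, 428 in Tg, and 42.0 and 69.5 in KI. In LN it was 62.9 and 51.4 in Wt, 76.4 and 47.3 in Tg, and 58.2 and 99.99 in KI. The Wt and Tg spleens were the 3 highest libraries, and the other 8 libraries overlapped each other whatever their genotype or tissue. Every gene of the table reached at least 109 in 1 library, and Ccl4 did so only in these 3 spleens. Its place in the table thus rested on libraries that the KI spleen and LN are compared with, which favours a fall. Spleen KI was 6.50-fold lower than spleen Wt (log2 difference -2.70 ± 0.39 SE, limma adjusted p = 0.0019). LN KI overlapped LN Wt, at 0.42 ± 0.39 (95% interval -0.45 to 1.28, limma adjusted p = 0.48). The spleen calls of Ccl3 and Ccl4 were made also without any 1 of the 4 spleen libraries, the largest limma adjusted p being 0.0442 for Ccl3 and 0.0247 for Ccl4.

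The promoter of Ccl3 is shown because Ccl3 moved with its neighbour Ccl4, and that of Xcl1 because Xcl1 also fell in the KI spleen. RefSeq windows were matched for 4 of the 7 genes, of which Ccl3 and Xcl1 were measured. Each window is the 250 bases before the gene's start in GRCm38.p6, printed 5' to 3' on the gene's strand, which is the minus strand for both genes. The Ccl3 window is chr11:83649379-83649628 and the Xcl1 window is chr1:164935523-164935772. Capitals mark a match to 1 of 4 motifs searched on both strands.
Ccl3: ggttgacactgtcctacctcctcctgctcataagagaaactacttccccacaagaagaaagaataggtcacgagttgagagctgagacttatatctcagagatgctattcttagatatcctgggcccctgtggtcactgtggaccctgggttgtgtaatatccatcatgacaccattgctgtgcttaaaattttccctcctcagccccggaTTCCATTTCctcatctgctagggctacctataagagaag
Xcl1: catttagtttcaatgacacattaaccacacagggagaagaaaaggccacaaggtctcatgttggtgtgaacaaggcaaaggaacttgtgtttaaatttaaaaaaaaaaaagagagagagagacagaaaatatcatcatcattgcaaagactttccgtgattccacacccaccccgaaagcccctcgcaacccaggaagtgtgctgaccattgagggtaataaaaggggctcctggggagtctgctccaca
The match in the Ccl3 window, TTCCATTTC, is the interferon-stimulated response element core GAAANNGAA read on the opposite strand, and it begins 39 bases before the start. That core occurred in 7.13% of 32851 RefSeq windows of the same length. The STAT element TTCNNNGAA (7.02% of windows), the kappa B form GGANTTTCC (1.07%) and the AP-1 site TGANTCA (6.75%) had no match in either window, and none of the 4 motifs matched in the Xcl1 window. None of the motifs printed here shares bases with another in these windows. A match is a description of letters, and binding was not measured.

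Ccl3 and Ccl4 lie side by side on chromosome 11, on opposite strands, beyond Ccl5, Ccl9 and Ccl6 in the order of the GENCODE M21 annotation. Ccl6 and Ccl9 encode further CC chemokines of myeloid cells, and both had rows in the table. In spleen, Ccl6 was 658 and 719 in Wt, 720.4 in Tg, and 274 and 398 in KI, and Ccl9 was 287 and 158 in Wt, 225 in Tg, and 94.3 and 105 in KI. For both genes the KI spleens were the lowest spleen libraries, but the KI minus Wt differences of -1.06 ± 0.41 (Ccl6) and -1.09 ± 0.46 (Ccl9) did not pass the test (limma adjusted p = 0.11 and 0.12). Wfdc17, the next gene beyond Ccl4 on its strand, differed by -0.20 ± 0.64 (limma adjusted p = 0.86). Wfdc21, further along, differed by -1.93 ± 1.14 (limma adjusted p = 0.27), and its KI and Wt spleens overlapped. In GENCODE M21 no gene overlaps Ccl3 or Ccl4, but in the RefSeq table of GRCm38.p6 the span of Ccl4, whose transcripts there include a predicted one, overlaps that of Ccl3. The annotation used for counting and its strand setting are not given in the sources used here, so whether reads of the 2 genes were kept apart in that stretch is not known. In LN, where Ccl3 and Ccl4 had KI minus Wt differences of opposite sign, neither passed the test.

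**Figure D2:**
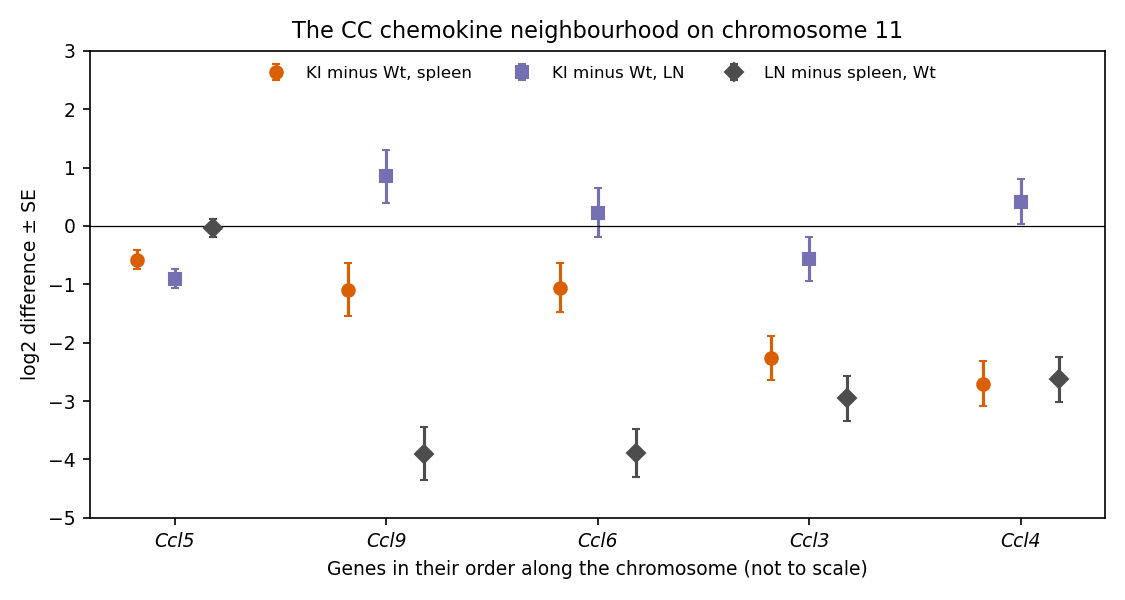
Log2 difference ± SE of the 5 CC chemokine genes of chromosome 11, in their order along the chromosome and not to scale, for KI minus Wt in spleen, KI minus Wt in LN, and LN minus spleen in Wt. All 5 genes lie below 0 for KI minus Wt in spleen, with Ccl3 (-2.26) and Ccl4 (-2.70) lowest, while Ccl5 alone lies near 0 for LN minus spleen in Wt (-0.04).

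Ccl5, which encodes RANTES, had the narrowest range of the members and was lower in KI in both tissues. In spleen its signal was 1684 and 1427 in Wt, 1489 in Tg, and 1019 and 1059.7 in KI. In LN it was 1654.5 and 1379.5 in Wt, 1803 and 1297 in Tg, and 839.6 and 775 in KI. All 4 KI libraries lay below all 7 others, and the Wt and Tg libraries of both tissues overlapped. The log2 difference of KI from Wt was -0.90 ± 0.16 in LN (1.87-fold lower, limma adjusted p = 0.0024) and -0.58 ± 0.16 in spleen (1.49-fold lower, limma adjusted p = 0.033). In LN, KI was also 1.90-fold lower than Tg (-0.92 ± 0.16, limma adjusted p = 0.0023). The spleen call ended when any 1 of the 4 spleen libraries was left out (limma adjusted p = 0.0648 to 0.196), and also when immunoglobulin and haemoglobin genes were left out of the scaling (-0.49, limma adjusted p = 0.0658).

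Cxcl16, the transmembrane ligand of CXCR6, was the member with the largest fall in the KI lymph node. In LN its signal was 377 and 271 in Wt, 712 (mouse 3) and 351 (mouse 4) in Tg, and 81.2 and 67.8 in KI. In spleen it was 151 and 112 in Wt, 94.2 in Tg, and 54.9 and 60.9 in KI. The 4 Wt and Tg LN libraries were the highest, the KI spleens were the lowest, and the KI lymph nodes lay below every Wt and Tg library of either tissue. LN KI was 4.27-fold lower than LN Wt (log2 difference -2.09 ± 0.32 SE, limma adjusted p = 0.0011) and 6.66-fold lower than LN Tg (-2.74 ± 0.32, limma adjusted p = 0.00032). On recovered reads, edgeR's quasi-likelihood test gave -2.11 against Wt with an adjusted p of 0.011. Spleen KI was 2.24-fold lower than spleen Wt (-1.16 ± 0.32, limma adjusted p = 0.033), a call that ended when any 1 of the 4 spleen libraries was left out (limma adjusted p = 0.0707 to 0.189).

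Cxcl16 lies on chromosome 11 and overlaps Zmynd15, which is on the opposite strand. Reads of overlapping genes could not be told apart without the strand setting, so the values of Zmynd15 are given beside those of Cxcl16. Zmynd15 was at 244 and 123 in LN Wt, 400.5 and 196 in LN Tg, and 48.3 and 62.1 in LN KI. The LN KI libraries were again below the LN Wt and Tg libraries, with a KI minus Wt difference of -1.64 ± 0.56 that did not pass the test (limma adjusted p = 0.055). Like Cxcl16, Zmynd15 was called lower in LN KI than in LN Tg (-2.33 ± 0.56, limma adjusted p = 0.013). It was also called higher in LN than in spleen of Wt mice (2.63 ± 0.56, limma adjusted p = 0.016). In spleen its KI minus Wt difference was -0.32 ± 0.56 (limma adjusted p = 0.72). Xcl1 likewise overlaps the noncoding transcript Gm20743, which was not analysed here.

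Xcl1, which encodes lymphotactin, was lower in the KI spleen, on 26 to 135 reads a library. In spleen its signal was 121 and 106 in Wt, 80.7 in Tg, and 31.7 and 27.2 in KI. In LN it was 56.4 and 83.1 in Wt, 36.8 and 80.2 in Tg, and 56.0 and 91.9 in KI. The KI spleens were the 2 lowest of the 11 libraries and the Wt spleens the 2 highest, whereas the 3 LN groups overlapped. Every gene of the table reached at least 109 in 1 library, and Xcl1 did so only in the spleen of Wt mouse 1. Its place in the table thus rested on the group that KI is compared with, which favours a fall. Spleen KI was 3.76-fold lower than spleen Wt (log2 difference -1.91 ± 0.42 SE, limma adjusted p = 0.013), from 37 and 38 reads in KI against 130 and 135 in Wt. The call ended when any 1 of the 4 spleen libraries was left out (limma adjusted p = 0.0578 to 0.0826). LN KI and LN Wt differed by 0.07 ± 0.42 (95% interval -0.85 to 0.99, limma adjusted p = 0.93), an interval that still holds changes of almost 1 log2 unit in either direction.

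Counted over the 5 measured chemokines, all 5 were lower in KI than in Wt spleen, where 9.21% of the 10885 genes were called lower. The lowest peak of any gene in the table was 109. Xcl1 reached it only in a Wt spleen and Ccl4 only in Wt and Tg spleens, and both are in this count. The 5 had a median log2 difference of -1.91, against 0.01 over all genes. In LN, 2 of 5 (Ccl5 and Cxcl16) were lower in KI than in Wt, where 12.2% of all genes were called lower, and the median was -0.57 against -0.02. In LN KI against LN Tg the 2 genes Ccl5 and Cxcl16 were lower as well, beside 12.2% of all genes called lower. The 2 LN comparisons share the KI libraries, and the tissue comparisons that follow reuse the Wt and KI libraries of these. A call means a limma p adjusted by Benjamini-Hochberg over all 10885 genes under 0.05. Without any 1 of the 4 spleen libraries, 2 of the 5 (Ccl3 and Ccl4) were called in spleen, and the number of all genes called in either direction went from 1833 to between 624 and 747.

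**Figure D3:**
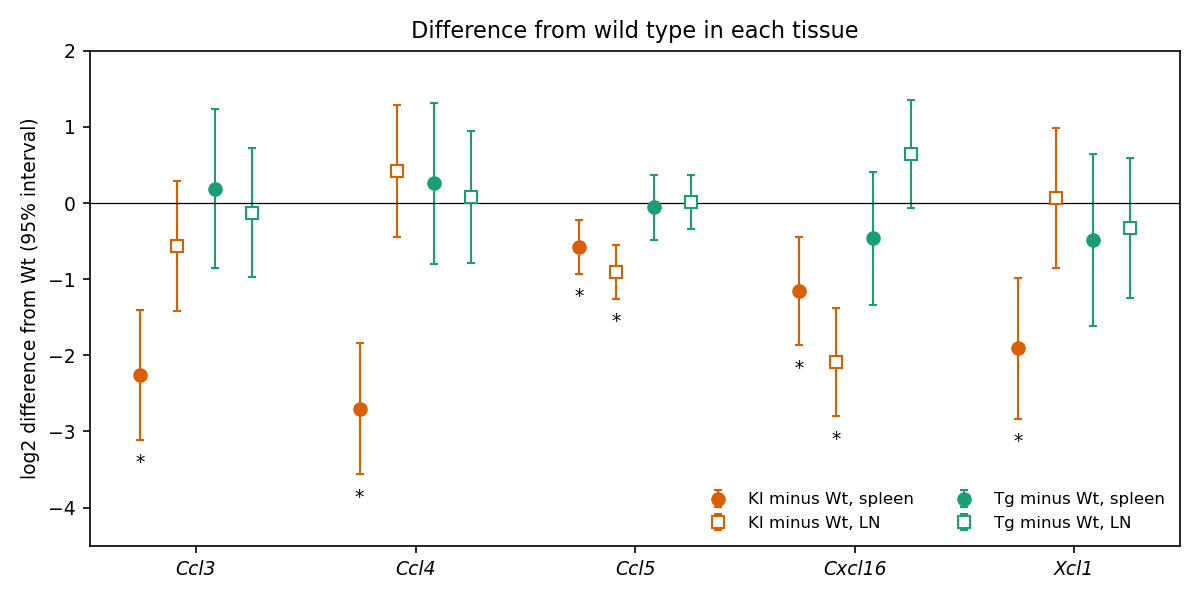
Log2 difference from Wt with its 95% interval for the 5 chemokines, KI in orange and Tg in green, spleen as filled circles and LN as open squares, where a star marks a limma adjusted p under 0.05. The starred points are the 5 KI spleen differences (-0.58 to -2.70) and the LN KI differences of Ccl5 (-0.90) and Cxcl16 (-2.09), and the Tg intervals all include 0.

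No member was called between Tg and Wt. In LN, 0 of 5 members were called beside 0% of all genes by limma, with 532 genes at an unadjusted p under 0.05, 0 genes by edgeR and 28 by DESeq2. In spleen, where the spread of the lone Tg library was taken from that of the remaining groups, 0 of 5 members were called beside 0% of all genes, with 164 at an unadjusted p under 0.05. Cxcl16 had the largest difference in LN, 0.64 ± 0.32 (95% interval -0.07 to 1.35, limma adjusted p = 0.96). It came from Tg mouse 3 at 712, since Tg mouse 4 at 351 lay between the 2 Wt mice. For Ccl5 the intervals were the narrowest, -0.34 to 0.37 in LN and -0.49 to 0.37 in spleen. For Ccl3 and Ccl4 in spleen they ran from -0.85 to 1.23 and from -0.80 to 1.32, so a 2-fold rise lay within both intervals.

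The tissues themselves differed in the Wt mice for 3 of the 5 members, beside 9.38% of all genes called in either direction. Ccl3 was 7.76-fold lower in LN than in spleen (-2.96 ± 0.38, limma adjusted p = 0.0013) and Ccl4 6.18-fold lower (-2.63 ± 0.39, limma adjusted p = 0.0024). The place of Ccl4 in the table rested on the Wt and Tg spleens alone, which favours this difference. Cxcl16 went the other way and was 2.44-fold higher in LN (1.29 ± 0.32, limma adjusted p = 0.030). Ccl5 had nearly equal signals in the tissues (-0.04 ± 0.16), and Xcl1 was at -0.72 ± 0.42 (limma adjusted p = 0.34). Within mouse 1 and mouse 2 the LN minus spleen difference was -3.06 and -2.86 for Ccl3, -2.88 and -2.37 for Ccl4, and 1.31 and 1.263 for Cxcl16. The Tg mouse 4 had the same signs, at -3.52, -3.15 and 1.89. Ccl4 lost its call without mouse 1 (-2.37, limma adjusted p = 0.0836). Cxcl16 lost its call without either spleen Wt library (limma adjusted p = 0.0753 without mouse 1 and 0.179 without mouse 2), without the LN library of Wt mouse 1 (0.236), and without all of mouse 1 (0.327) or all of mouse 2 (0.166).

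In the KI mice none of the 5 members was called between LN and spleen, beside 9.27% of all genes called in either direction, and at an unadjusted p under 0.05 were Ccl3, Ccl5 and Xcl1. Ccl3 was -0.78 and -1.75 within mice 5 and 6, and Ccl4 was 0.46 and 0.52, so Ccl4 was the higher in LN in both KI mice and the lower in LN in the Wt and Tg mice. Xcl1 was 0.80 and 1.72 in the KI mice, against -1.08 and -0.35 in the Wt mice. Since the spleen and LN of a mouse carry the same number, the mouse was also fitted as a replicate block. With the replicate block, 3 members were called in KI, namely Ccl3 (-1.26, limma adjusted p = 0.0086), Ccl5 (-0.37, limma adjusted p = 0.049) and Xcl1 (1.259, limma adjusted p = 0.038).

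**Figure D4:**
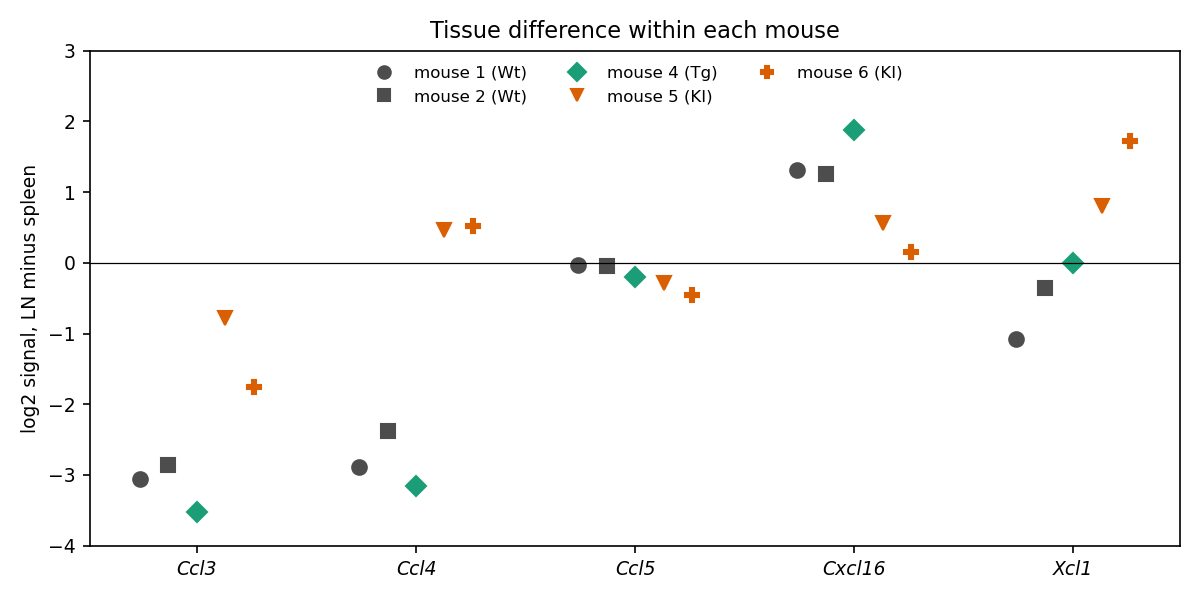
Log2 signal in LN minus spleen within each of the 5 mice with both tissues, by gene, with Wt in grey, Tg in green and KI in orange. For Ccl4 the 2 KI mice lie at 0.46 and 0.52 and the Wt and Tg mice between -2.37 and -3.15, and for Xcl1 the KI mice lie above the other 3.

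The test of the tissue difference between genotypes, that is the KI minus Wt difference in LN less that in spleen, called 1 of the 5 members, beside 0.955% of all genes. This was Ccl4, at 3.12 ± 0.55 on the log2 scale (95% interval 1.90 to 4.34, limma adjusted p = 0.035). The place of Ccl4 in the table rested on the Wt and Tg spleens alone, which favours such a difference. The differences of Xcl1 (1.98 ± 0.59, limma adjusted p = 0.13) and Ccl3 (1.69 ± 0.54, limma adjusted p = 0.16) had the same sign and did not pass, and Ccl5 (-0.33 ± 0.23) and Cxcl16 (-0.93 ± 0.45) had the opposite sign and did not pass. With the replicate block Ccl4 (limma adjusted p = 0.00097), Ccl3 (0.026) and Xcl1 (0.046) were called. Without the block, the call of Ccl4 ended when 1 library or 1 mouse was left out (2.72 to 3.52, limma adjusted p = 0.0594 to 0.159), except when the LN library of KI mouse 5 was the one left out (3.503, limma adjusted p = 0.043).

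Receptor genes of these ligands described here are Ccr1, Ccr3, Cxcr3 and Cxcr6. In spleen 1 of these 4, Ccr1, was lower in KI than in Wt (2.94-fold, log2 difference -1.56 ± 0.45, limma adjusted p = 0.039), beside 9.21% of all genes. None of the 4 was called in LN between KI and Wt, where 12.2% of all genes were called lower and 13.8% higher. In LN KI against LN Tg, Ccr1 was lower (-1.35 ± 0.45, limma adjusted p = 0.048), beside 12.2% of all genes called lower. That LN call rested on 14 and 10 reads in KI and 27 and 39 in Tg. Ccr1 was at 133 and 344 in spleen Wt, 331 in Tg, and 56.6 and 91.7 in KI, so the KI spleens were the lowest. Cxcr6, the receptor of CXCL16, was at -0.68 ± 0.24 in LN (limma adjusted p = 0.062) and -0.39 ± 0.24 in spleen (limma adjusted p = 0.30). Cxcr3 was at 0.30 ± 0.18 in spleen and 0.10 ± 0.18 in LN, and Ccr3, an eosinophil receptor of CCL5, at 0.53 ± 0.52 and 0.14 ± 0.52, none of which passed. Between the tissues of Wt mice Cxcr6 was higher in LN (1.02 ± 0.24, limma adjusted p = 0.024), and Ccr1 and Ccr3 were lower. Among their ligands in the same libraries, Cxcl16 was higher in LN, and Ccl3 and Ccl4 were lower.

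Among 7 measured decoy receptors, proteases and shedding enzymes, 2 were lower in the KI spleen, beside 9.21% of all genes. None was called between KI and Wt in LN, where 12.2% of all genes were called lower and 13.8% higher. Ccrl2, which binds chemerin and presents it to other cells, was at 428 and 460.1 in spleen Wt, 459 in Tg, and 129.5 and 74.5 in KI (-2.16 ± 0.27, limma adjusted p = 0.00096). Its KI difference also depended on tissue (2.90 ± 0.39, limma adjusted p = 0.017), as that of Ccl4 did. Ackr3, a scavenger of CXCL12, was the other gene lower in the KI spleen (-2.82 ± 0.76, limma adjusted p = 0.029), on 7 and 12 reads in KI. Ackr3 was at 64.1 and 50.3 in spleen Wt. It reached 109, as every gene of the table did in some library, only in the Tg spleen (119). Adam10, which cuts CXCL16 from the cell surface, was at 0.27 ± 0.12 in LN and 0.05 ± 0.12 in spleen, neither called, while Cxcl16 was lower in both tissues.

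Of 19 other inflammatory chemokines 6 were measured, and of 10 homeostatic chemokines none was. Cxcl2, a neutrophil attractant, was at 521 and 1111 in spleen Wt, 1775 in Tg, and 12.0 and 1.43 in KI (-7.08 ± 0.76, limma adjusted p = 0.00048), which in KI rests on 14 and 2 reads. Cxcl2 reached 109, as every gene of the table did in some library, only in the Wt and Tg spleens. It was also lower in LN KI (-2.47 ± 0.76, limma adjusted p = 0.037), on only 4 and 1 reads against 10 and 18 in LN Wt. Ccl22, made by mature dendritic cells, was at 819 and 547 in LN Wt, 1074 and 1103 in LN Tg, and 68.0 and 121 in LN KI (-2.87 ± 0.39, limma adjusted p = 0.00077). Ccl22 shared with Cxcl16 a higher level in LN than in spleen of Wt mice and a fall in LN KI. Pf4 and Ppbp, chemokines of platelets, were at 0 in all 6 LN libraries.

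Interferon-gamma induces several chemokines, and its gene Ifng was lower in the KI spleen (-2.45 ± 0.39, limma adjusted p = 0.0031). Of 15 measured genes of the interferon-gamma axis, 4 were lower and 1 higher in the KI spleen, beside 9.21% and 7.63% of all genes called lower and higher. In LN 5 were lower and 3 higher, beside 12.2% and 13.8% of all genes. Irf1, an interferon-induced transcription factor, was lower in spleen (-0.90 ± 0.13, limma adjusted p = 0.0018), and Tbx21, the T-bet gene, was higher (0.62 ± 0.15, limma adjusted p = 0.019). The interferon-gamma induced GTPases, which defend cells against intracellular microbes, were counted as well. Of 12 measured, 7 were higher and none lower in LN KI, beside 13.8% of all genes called higher there. In the KI spleen 1 was higher and 1 lower, near the 7.63% and 9.21% of all genes. All 16 measured genes of the type I interferon response were higher in LN KI, with a median of 2.67. In the KI spleen 3 of the 16 were higher and 13 were not called (median 0.79).

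Immediate early and NF-kB feedback genes, many of which are switched on soon after cell stimulation, were counted beside the chemokines. The list also holds the NF-kB subunit genes Nfkb1, Nfkb2 and Relb, which were among those lower in LN KI. Of 18 measured, 13 were lower and none higher in the KI spleen (median -1.84), beside 9.21% of all genes called lower. In LN KI 9 were lower, none was higher and 9 were not called (median -0.79), beside 12.2% called lower, and the uncalled genes included positive values such as Fos (0.50 ± 0.54) and Fosb (0.94 ± 0.90). Examples in spleen were Nr4a1 (-3.59 ± 0.35), Atf3 (-6.24 ± 0.51) and Nfkbiz (-2.13 ± 0.29), with limma adjusted p of 0.0016, 0.00089 and 0.0045. Many genes of this list also respond to tissue dissociation, and the part of handling in the chemokine values was not tested.

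Markers of the cells that make these chemokines moved with them in part. Over all genes, 9.21% were called lower and 7.63% higher in the KI spleen, and 12.2% and 13.8% in LN KI. Of 17 pan T cell markers, all 17 were lower in the KI spleen and 16 in LN KI. Their summed signals were 57447 and 57800 in spleen Wt against 27092 and 28780 in KI. In LN they were 111515 and 102812 in Wt against 47804 and 57261 in KI. Of 2 CD8 T cell markers, none was called in the KI spleen (median -0.88), and 1 was lower in LN KI (median -0.99). Of 15 measured NK and cytotoxic markers, 4 were lower in the KI spleen (Nkg7, Ctsw, Fasl and Gzmb). Their summed signal in spleen was 6435 and 7589 in Wt and 3540 and 4661 in KI. In LN KI 3 were lower and Gzmk was higher, with sums of 7692 and 7892 in Wt and 3925 and 5387 in KI. The macrophage and monocyte markers went apart from the spleen chemokines. None of 18 was called in the KI spleen (sums of 18214 and 23541 in Wt, 19914 and 19020 in KI), whereas 10 were lower and 1 higher in LN KI. Their LN sums nevertheless overlapped, at 7718 and 5275 in Wt and 5957 and 7816 in KI.

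Of 10 dendritic cell markers, 3 were lower (Fscn1, Ccr7 and Batf3) and 2 higher in LN KI, beside 12.2% and 13.8% of all genes. Their median log2 difference from Wt was -0.11. Their sums were 14581 and 22138 in LN Wt, 26054 and 21684 in LN Tg, and 5421 and 8661 in LN KI. Ccr7, which naive lymphocytes also express, carried much of these sums. Without Ccr7 they were 6820 and 5520 in LN Wt, 10916 and 7218 in LN Tg, and 3015 and 5674 in LN KI, so that KI and Wt overlapped. In the KI spleen 1 of 10, Ccr7, was lower, near the 9.21% of all genes called lower, and the median was -0.10. The spleen sums were 15910 and 11690 in Wt and 6512 and 7002 in KI. Without Ccr7 the spleen sums were 3373 and 3031 in Wt and 3671 and 3456 in KI. None of 11 neutrophil markers was called, and their sums spread widely among the spleens, at 6776 and 54193 in Wt, 46771 in Tg, and 2359 and 7256 in KI. Plasma cell markers went the opposite way, with sums of 25175 and 22325 in spleen Wt, 124577 and 76122 in spleen KI, 7447 and 11003 in LN Wt, and 142958 and 147998 in LN KI. B cell marker sums were 111442 and 104157 in spleen Wt and 129438 and 143493 in spleen KI. No marker of the T cell, NK, macrophage, dendritic or B cell lists was at 0 in any library, and the part of cell composition in the chemokine differences was not tested.

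For each member the 3 genes with the most similar profile were found over the 11 libraries, as the smallest root mean square difference of log2 signal after centring each gene on its mean. Nearest to Ccl3 were Ier3 (0.52), Tgfbi (0.56) and Nlrp3 (0.57), where the SD of Ccl3 itself was 1.51. Nearest to Ccl4 were Zc3h12c (0.54), Ccrl2 (0.57) and Ier3 (0.59). Ier3 is an immediate early gene and Nlrp3 encodes an inflammasome sensor of myeloid cells. Ier3 was at 282 and 292 in spleen Wt, 395 in Tg, and 31.7 and 48.0 in KI, and at no more than 36.8 in LN, so that it was high where Ccl3 and Ccl4 were. The distance between Ccl3 and Ccl4 was 0.61, the smallest among the 10 pairs of members, and that between Ccl3 and Cxcl16 was 2.03, the largest.

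Nearest to Cxcl16 were Cacnb3 (0.31), Serpinb6b (0.35) and Lad1 (0.37), where the SD of Cxcl16 was 1.24. Cacnb3, a calcium channel subunit gene, was at 606 and 714 in LN Wt, 839.8 and 1288 in LN Tg, and 202 and 229.9 in LN KI. Its spleen values were 204 and 206 in Wt, 212 in Tg, and 105 and 128 in KI. Like Cxcl16 it was highest in the Wt and Tg lymph nodes and lowest in the KI spleens, but its LN KI values were near those of the Wt and Tg spleens. Nearest to Ccl5 were Tle3 (0.15), Rap1b (0.15) and Relb (0.16), where the SD of Ccl5 was 0.41. Nearest to Xcl1 were Gm43863, Mir5107 and Zfp992 (0.40 to 0.41), where its own SD was 0.71, a looser match relative to its spread. These distances describe 11 libraries that share mice, depth and scaling, and carry no test.

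**Figure D5:**
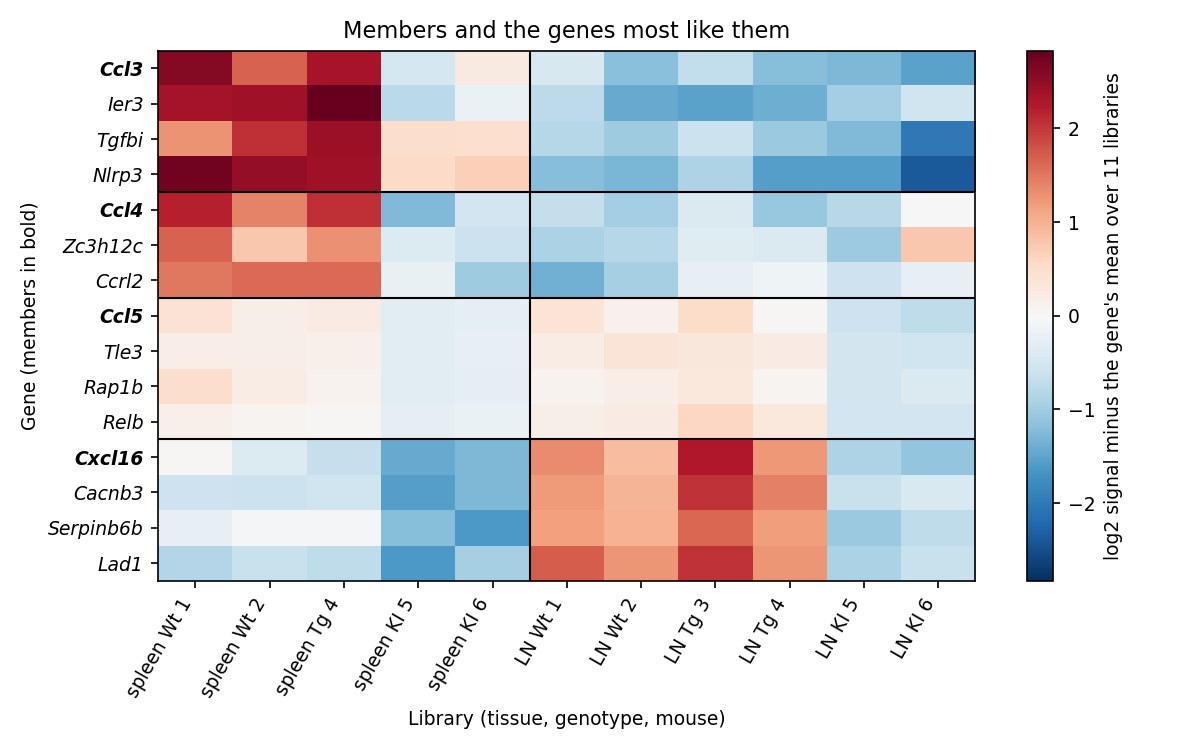
Log2 signal minus each gene's mean over the 11 libraries, for Ccl3, Ccl4, Ccl5 and Cxcl16 (bold) and their most similar genes, with libraries in columns by tissue, genotype and mouse. Ccl3, Ccl4 and their neighbours are red in the 3 Wt and Tg spleens, and Cxcl16 and its neighbours are red in the 4 Wt and Tg lymph nodes and blue in the 4 KI libraries.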

How the data were processed

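The deposited table holds a normalised signal made by the authors from read counts divided by 1 factor per library. Per the submitters' processing notes, FastQC 0.11.5, STAR 2.5, featureCounts, Subread 1.4.6, DESeq2 1.26.0 and GRCm39 were used. The annotation and strand setting are not given in the sources used here. Every gene reached at least 109 in 1 library, so weakly expressed genes were not analysed here. In each library 100% of values came out as whole reads (tolerance 0.05) once divided by 1 step. As alternatives, edgeR 4.0.16 and DESeq2 1.42.0 were run on the recovered reads of the LN libraries only, and neither was run in spleen. The main test was limma 3.58.1 under R 4.3.3, as planned for normalised values, with trend and robust options on log2 of the value plus 1. It fitted 6 group means over 11 libraries, with 5 residual degrees of freedom. Adjustment was by Benjamini-Hochberg over 10885 genes, threshold 0.05. Fold changes are on the log2 scale of the value plus 1, which understates those of low genes. The code was tested on simulated data.

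The labels give each mouse a number, which pairs its spleen and LN. Deviations from the group means in the 2 tissues correlated at 0.403 (Wt) and 0.900 (KI) over genes. Members and lists were chosen with earlier results of these data known. From each list, up to 4 called genes of smallest p could be named, with members, receptors and the 3 genes nearest each member. Wfdc17, Wfdc21 and Zmynd15, as neighbours, and uncalled list genes such as Ccl6, Ccl9 and Adam10 were named after their values were seen. Alternatives were the pseudocount (0.1, 5), a mean of at least 200, TMM, quantile and immunoglobulin-free scaling, fits of the compared groups only, leaving out libraries or mice, and the mouse block. One result is not reported here. GENCODE M21 gave gene order; 10875 of 10885 identifiers matched.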

Additional observations from a re-analysis of the deposited data

Results flagged for a closer look

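The KI minus Wt difference of Ccl4 was not the same in the tissues. It differed by 3.12 ± 0.55 on the log2 scale between LN and spleen (limma adjusted p = 0.035), with Ccl4 lower in both KI spleens than in both Wt spleens and overlapping between KI and Wt in LN. Ccl4 reached the lowest peak of any gene in the table only in Wt and Tg spleens, which favours such a difference. The call ended when most single libraries or mice were left out (2.72 to 3.52).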

How the results depend on the processing

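The count of members lower in the KI spleen went from 5 to 3 when only genes with a mean of at least 200 were tested, which leaves out Ccl4 and Xcl1, and was 2 to 2 without 1 of the spleen libraries. In LN minus spleen of Wt mice the count was 1 to 3 over the left-out libraries and mice. In KI mice it went from 0 to 1 with quantile normalization or the compared groups only, and to 3 with the mouse as a replicate block. For the tissue dependence of the KI difference it went from 1 to 0 with the mean of at least 200 or with quantile normalization, was 0 to 1 over the left-out libraries and mice, and was 3 with the replicate block. The block ended no call of a member and added none in Wt. Of the alternative values of single members, 462 kept their direction and side of the threshold, 31 lost a call, 7 gained one and 19 changed sign.

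The sign changes were in differences that no setting called. With quantile normalization they were Xcl1, KI minus Wt in LN (-0.17), and Ccl4, Tg minus Wt in LN (-0.073). Over left-out libraries, KI minus Wt in LN ran from -0.29 (-0.21 at the next) to 0.42 for Xcl1. Tg minus Wt in LN ran from -0.49 to 0.23 (0.12 at the next) for Ccl3, from -0.26 and -0.064 to 0.42 for Ccl4, from -0.22 and -0.11 to 0.255 for Ccl5, and from -0.88 to 0.22 for Xcl1. Tg minus Wt in spleen ran from -0.27 to 0.65 for Ccl3, from -0.14 to 0.66 for Ccl4 and from -0.18 to 0.062 for Ccl5. KI minus Tg in LN ran from -0.047 and -0.0023 to 0.72 for Ccl4 and from -0.16 to 0.945 for Xcl1. LN minus spleen in Wt for Ccl5 reached 0.082 and 0.094. The cause was not tested.

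Scaling without immunoglobulin and haemoglobin genes moved the median of all genes in KI minus Wt from -0.02 to 0.11 in LN and from 0.01 to 0.10 in spleen. The genes called higher and lower went from 1502 and 1331 to 2107 and 853 in LN, from 830 and 1003 to 1419 and 770 in spleen, and from 1580 and 1330 to 2097 and 994 in KI minus Tg. Quantile normalization gave 446 and 559 against 336 and 685 in LN minus spleen of Wt. Over all genes, KI minus Tg had 2910 calls, and 1830 with the compared groups only. The tissue dependence had 104, and 69 with a mean of at least 200, 165 with the compared groups only and 596 with the replicate block. LN minus spleen in Wt had 1021, and 693 with the mean of at least 200 and 1577 with the block. LN minus spleen in KI had 1009, and 672 with the mean of at least 200. Tg minus Wt had 1 in spleen with the compared groups only, and 0 to 13 in LN over the left-out libraries. Left-out libraries, or for the tissue comparisons libraries or mice, gave 1465 to 1959 in KI minus Wt LN (2833 with all), 1341 to 2527 in KI minus Tg, 214 to 927 in the Wt tissues, 112 to 625 in the KI tissues and 3 to 118 in the tissue dependence. Leaving out the single spleen Tg library could not be fitted. At 26 to 101 reads per library, as for Xcl1 outside the Wt spleens, counting error adds to the spread between mice.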
